A study of Rattus norvegicus with 8 samples.

Results

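The 9 genes described here encode hepatic enzymes that break down amino acids: Tat, Tdo2, Sds, Hal, Hpd, Gpt, Got1, Aass and Prodh2. They were chosen by name, with earlier results of these data known. Each was read from the probe set whose only gene symbol was that gene. All 9 were found, each with 1 probe set, among 14506 named genes, and none was removed for low signal. Total RNA from livers of male Wistar rats, an outbred strain, aged 6 to 10 weeks, was hybridised to 1-colour Affymetrix arrays. Each liver had been kept alive outside the body by a buffer pumped through its vessels. In the hypoosmotic group (4 arrays) the Krebs-Henseleit buffer had 225 mosm/L, and in the normoosmotic group (4 arrays) it had 305 mosm/L. All 8 arrays carry the time point of 120 min, and no genetic alteration or drug is named for either group. The labels do not state whether the samples within a group are separate animals, so the p-values here rest on a spread that could in part be technical.

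Hepatocytes take up amino acids from portal blood, remove the nitrogen by transamination or deamination and pass the carbon skeletons to glucose, ketone or energy production. Several enzymes that open these routes are induced by glucocorticoids and glucagon and respond to feeding, Tat being a textbook example. Liver cells in a dilute buffer take up water and swell, and hepatocyte swelling is known to act on protein and carbohydrate metabolism in the direction of insulin. The comparison asks how the transcripts of these enzymes differ when the perfusate is made hypoosmotic.

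The array medians lay between 4.05 and 4.16 on the log2 scale, and precision is limited by the number of arrays. Of 43 measured markers of liver cell types and zones 0 were called at an adjusted p under 0.05 by limma, against 1.98% of all genes. Of the 43, 7 had an unadjusted p under 0.05, against 14.6% of all genes, namely Pck1, Gls2, Axin2, Rhbg, Reln, Hbb and Alas2, named after their values were seen. The mean log2 level of 6 hepatocyte markers, among them Alb and Ttr, lay between 12.02 and 12.16 in hypoosmotic arrays and between 12.07 and 12.14 in normoosmotic arrays. Whole-liver RNA cannot tell a lower share of one cell type apart from less RNA per cell. Hypoosmotic replicate 4 stood apart for the enzymes: it had the highest value of the 8 arrays for 6 of the 9, whereas it was the highest for 13.2% of all genes and for 20.4% of the genes with a mean at or above the median of all genes. Results that rest on this array are therefore given with it and without it.

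RefSeq (build GRCr8) held promoter sequences for 6 of the 9 genes. The 250 bases before the transcription start are shown for Tat, which carried the difference between the groups, for Aass, which had the largest difference in the other direction, and for Tdo2, which like Tat catalyses the first step of an aromatic amino acid's breakdown. They are written 5′ to 3′ on the strand of the gene. Capitals mark matches on either strand to 6 short motifs, which did not overlap here. CCAAT is the box bound by NF-Y, and TATAAA is the core of the TATA box. TGACG is a half-site of the cAMP response element, and TGTTCT is a half-site of the glucocorticoid receptor. TGTTTAC is the motif of forkhead factors, and CACGTG is the E-box.
Tat (chr19:54856354-54856603, plus strand): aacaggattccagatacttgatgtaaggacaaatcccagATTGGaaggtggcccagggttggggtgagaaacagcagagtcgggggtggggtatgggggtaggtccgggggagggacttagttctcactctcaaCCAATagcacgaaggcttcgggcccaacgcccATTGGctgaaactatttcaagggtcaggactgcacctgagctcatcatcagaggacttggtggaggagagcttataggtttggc
Aass (chr4:52628812-52629061, minus strand): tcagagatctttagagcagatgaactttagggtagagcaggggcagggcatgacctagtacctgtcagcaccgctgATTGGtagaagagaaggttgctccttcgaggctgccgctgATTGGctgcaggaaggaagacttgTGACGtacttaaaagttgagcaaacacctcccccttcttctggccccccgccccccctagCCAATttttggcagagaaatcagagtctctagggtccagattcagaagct
Tdo2 (chr2:169585587-169585836, minus strand): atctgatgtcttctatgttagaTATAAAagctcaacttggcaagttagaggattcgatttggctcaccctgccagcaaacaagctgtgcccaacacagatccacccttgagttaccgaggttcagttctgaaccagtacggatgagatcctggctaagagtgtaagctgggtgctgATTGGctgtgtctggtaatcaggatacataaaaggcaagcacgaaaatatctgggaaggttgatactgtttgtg

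The Tat window held 3 CCAAT matches, at 211, 116 and 84 bases before the start (first base of each match), the middle one on the gene's strand. The Aass window also held 3 CCAAT matches, and 1 TGACG match 110 bases before the start. In the Tdo2 window there was 1 CCAAT match, 74 bases before the start, and 1 TATAAA match 228 bases before it. A CCAAT match was present in 34.3% of the 27457 rat promoter windows of this length, TATAAA in 13.1% and TGACG in 19%. The glucocorticoid receptor half-site, which 17.1% of windows hold, the forkhead motif (3.25%) and the E-box (5.79%) had no match in any of these 3 windows. These matches describe the letters only.

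Of the 9 enzymes 1 was called by limma at an adjusted p under 0.05, Tat, which fell, and 0 were called higher. Over all genes 1.98% were called, 1.42% lower and 0.558% higher. For 6 of the 9 genes the log2 change was above 0, for 2 it was below 0 and for Hpd it was 0.00, and their median change was 0.083, against 0.038 over all genes. Without hypoosmotic replicate 4, Tat was again the 1 enzyme called, 3 changes were above 0 and the median was −0.055. The median over all genes in that fit was 0.044.

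Tyrosine aminotransferase, encoded by Tat (probe set 10807815), removes the amino group of tyrosine in the first and rate-limiting step of its breakdown. Tat read 11.17, 10.92, 10.91 and 10.99 log2 units in hypoosmotic replicates 1 to 4, and 11.82, 11.74, 11.69 and 11.79 in normoosmotic replicates 1 to 4. Every hypoosmotic value lay below every normoosmotic one, and the gap between the groups was wider than the range within either. Tat was the 1 enzyme of the 9 with groups that lay apart, which 8.27% of all genes did in either direction and 5.05% with hypoosmotic arrays lower. The hypoosmotic mean was 11.00 ± 0.12 and the normoosmotic mean 11.76 ± 0.06 (SD, n = 4 each), and the difference was −0.76 ± 0.11 (SE) log2 units, with −0.99 and −0.53 as the 95% bounds (limma, adjusted p = 0.00408). On a linear scale the hypoosmotic level was 0.590-fold the normoosmotic one, with an interval of 0.502 to 0.692. Tat was among the steadier genes within groups, since 6.15% of all genes had a pooled SD as small or smaller. Its value in hypoosmotic replicate 4 differed by −0.01 from the mean of the other 3 hypoosmotic arrays, and without that array the change was −0.76 (adjusted p = 0.0102).

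Hpd (probe set 10758457), the next enzyme gene of the tyrosine route, did not pass the test. It encodes 4-hydroxyphenylpyruvate dioxygenase, which oxidises the product of the Tat reaction. Hpd read 11.69, 11.90, 11.68 and 11.89 in hypoosmotic replicates and 11.78, 11.71, 11.75 and 11.92 in normoosmotic replicates, so that the groups covered nearly the same range. Both means were 11.79, with SDs of 0.12 (hypoosmotic) and 0.09 (normoosmotic), and the 95% interval of the change ran from −0.24 to 0.24 (limma, adjusted p = 1.0). The interval of Hpd does not reach that of Tat, whose upper bound is −0.53. Whether the changes of the 2 genes differ was not tested. Without hypoosmotic replicate 4 the change of Hpd was −0.033 (adjusted p = 0.922).

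**Figure D1:**
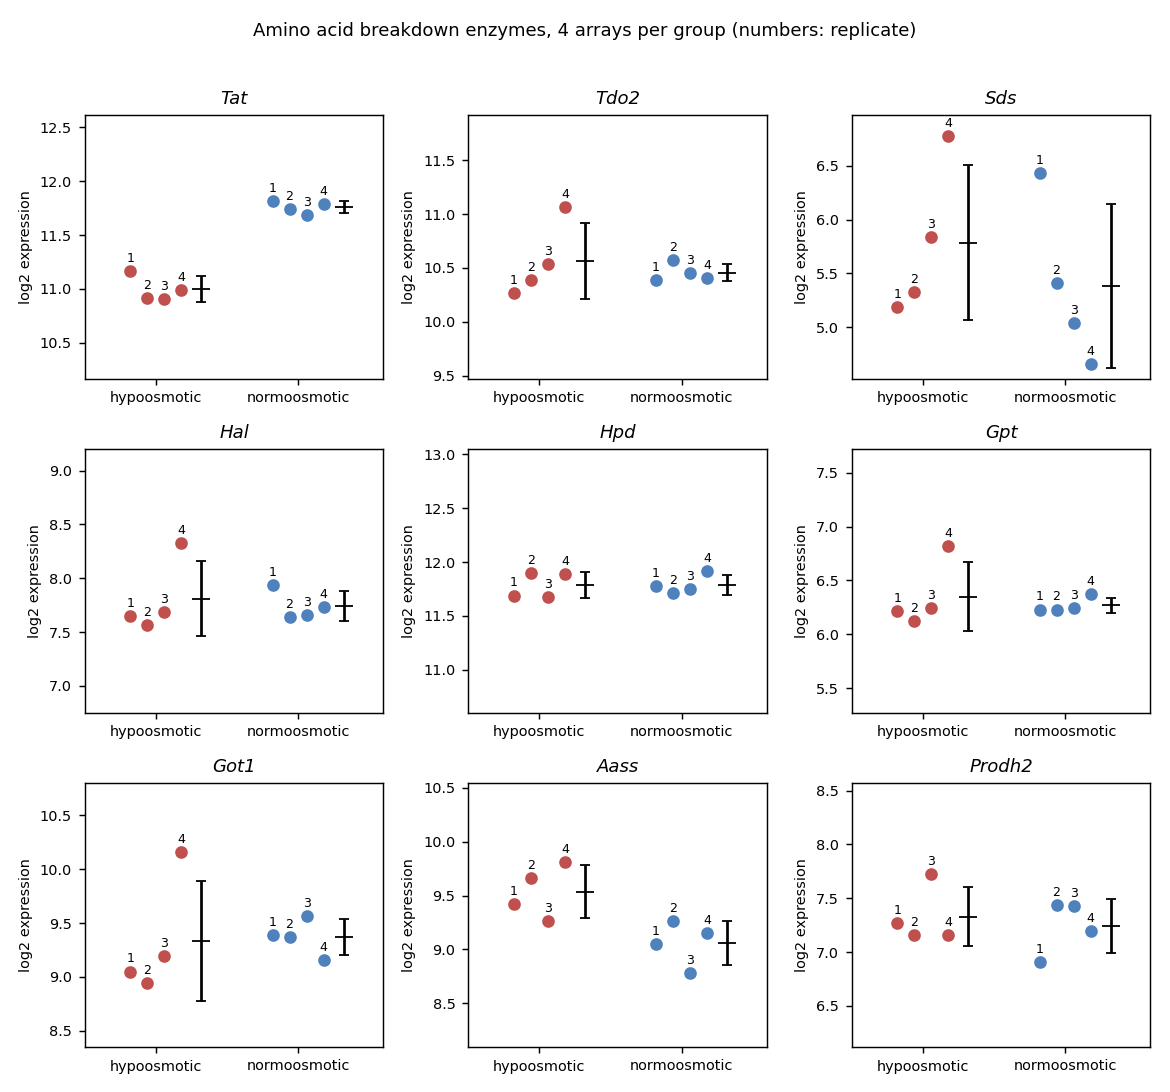
Log2 expression (y axis) of the 9 enzymes in hypoosmotic (red, left) and normoosmotic (blue, right) arrays; each point is 1 array numbered by its replicate, bars show the mean ± SD of 4 arrays, and every panel spans the same number of log2 units. The hypoosmotic arrays of Tat, at 10.91 to 11.17, lie below its normoosmotic arrays, at 11.69 to 11.82, while hypoosmotic replicate 4 sits above all other arrays for Tdo2, Sds, Hal, Gpt, Got1 and Aass.

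Tryptophan 2,3-dioxygenase, the product of Tdo2 (probe set 10823890), opens the indole ring and starts the kynurenine route. Tdo2 read 10.27, 10.39, 10.54 and 11.07 in hypoosmotic replicates 1 to 4, against 10.39, 10.57, 10.45 and 10.41 in normoosmotic replicates. The first 3 hypoosmotic arrays fell within or just under the normoosmotic range, and replicate 4 was the highest of all 8. The log2 change was 0.11 (95% interval −0.22 to 0.45; limma, adjusted p = 0.808) with all arrays and −0.055 (−0.31 to 0.20; adjusted p = 0.865) without replicate 4.

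Sds (probe set 10762324) encodes serine dehydratase, which deaminates serine to pyruvate, a step towards glucose. Its values were 5.19, 5.33, 5.84 and 6.78 in hypoosmotic replicates and 6.43, 5.41, 5.04 and 4.66 in normoosmotic replicates. Sds was the most variable of the 9 within groups, with a pooled SD of 0.74 that 99.7% of all genes did not exceed. High values occurred in each group, in hypoosmotic replicate 4 and normoosmotic replicate 1, and the ranges overlapped over most of their length. The change was 0.40 (limma, adjusted p = 0.688), with the widest 95% interval of the 9 genes, −0.39 to 1.19. It was 0.068 (−0.65 to 0.79) without hypoosmotic replicate 4.

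Histidine ammonia-lyase, encoded by Hal (probe set 10894897), turns histidine into urocanate and releases ammonia. Hal read 7.65, 7.57, 7.69 and 8.33 in hypoosmotic replicates, against 7.94, 7.64, 7.66 and 7.73 in normoosmotic replicates. Apart from hypoosmotic replicate 4 and normoosmotic replicate 1 the values were close to each other in the 2 groups. The change was 0.068 (95% interval −0.28 to 0.41; limma, adjusted p = 0.9), and −0.11 (−0.37 to 0.16; adjusted p = 0.717) without hypoosmotic replicate 4. Sds and Hal are known to be higher in hepatocytes near the portal vein. Over 6 other periportal markers the mean log2 level was 9.84 to 10.04 in hypoosmotic arrays and 9.87 to 10.04 in normoosmotic arrays, and it was 10.04 in hypoosmotic replicate 4. Its members differed in direction. Pck1, a gluconeogenic enzyme gene, read 9.12 to 10.00 in hypoosmotic and 10.03 to 11.04 in normoosmotic arrays, a change of −0.78 (limma, adjusted p = 0.0963). Gls2, which encodes the liver glutaminase, read 8.42 to 8.93 in hypoosmotic and 8.15 to 8.39 in normoosmotic arrays, a change of 0.40 (adjusted p = 0.15). In hypoosmotic replicate 4 Pck1 had its lowest value of the 8 arrays, 9.12, and Arg1, the urea-forming arginase gene, its highest, 10.64. Gls2 (8.93) and the periportal marker Ass1 (11.85) were also highest in that array. The other periportal markers, Asl (9.92 there) and Hsd17b13 (9.76 there), were highest in normoosmotic replicate 3, at 9.93 and 10.03. The 6 measured pericentral markers also differed in direction. Axin2 had a change of −0.48 (limma, adjusted p = 0.0977) and Rhbg one of 0.30 (adjusted p = 0.298). Slc1a2, Cyp2e1, Cyp1a2 and Lgr5 had changes of −0.28, −0.235, −0.0225 and −0.02. The pericentral mean was 6.54 to 7.01 in hypoosmotic and 6.785 to 7.06 in normoosmotic arrays. In hypoosmotic replicate 4 it was 7.01, the highest of the hypoosmotic arrays. The part of zonation in the Sds and Hal values was not tested.

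The cytosolic aminotransferases are Gpt, which exchanges the amino group between alanine and glutamate, and Got1, which does so for aspartate. Gpt (probe set 10897360) read 6.22, 6.12, 6.24 and 6.82 in hypoosmotic replicates and 6.23, 6.23, 6.24 and 6.37 in normoosmotic replicates. Hypoosmotic replicate 4 was the highest of the 8 arrays, and normoosmotic replicate 4 lay above the other 3 normoosmotic arrays, which read 6.23 to 6.24. Its log2 change was 0.083 (95% interval −0.23 to 0.40; limma, adjusted p = 0.86), and −0.074 (−0.32 to 0.17) without replicate 4.

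Got1 (probe set 10715364) read 9.05, 8.94, 9.19 and 10.16 in hypoosmotic replicates and 9.39, 9.37, 9.57 and 9.16 in normoosmotic replicates. Here hypoosmotic replicates 1 and 2 were below every normoosmotic array, while replicate 4 was above every one. The change was −0.038 (95% interval −0.51 to 0.44; limma, adjusted p = 0.966) with all arrays. Without hypoosmotic replicate 4 it was −0.31 (−0.60 to −0.029), with an unadjusted p of 0.0334 and an adjusted p of 0.253, so that Got1 did not pass the test in either case.

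Aass (probe set 10861242) encodes the bifunctional mitochondrial enzyme that starts lysine breakdown. Aass read 9.42, 9.66, 9.26 and 9.81 in hypoosmotic replicates, against 9.05, 9.26, 8.78 and 9.15 in normoosmotic replicates. The lowest hypoosmotic array and the highest normoosmotic one had the same value, and all others were ordered by group. The hypoosmotic mean was 9.54 ± 0.25 and the normoosmotic mean 9.06 ± 0.21 (SD, n = 4 each), so that the difference was 0.48 log2 units (95% interval 0.16 to 0.79). This did not pass over all genes (limma, unadjusted p = 0.00588, adjusted p = 0.121), and without hypoosmotic replicate 4 the change was 0.39 (adjusted p = 0.206). An unadjusted p under 0.05 with a higher hypoosmotic mean was found in 6.6% of all genes.

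Prodh2 (probe set 10705987), whose product acts as a hydroxyproline dehydrogenase and so begins the breakdown of a collagen-derived amino acid, read 7.27, 7.16, 7.73 and 7.16 in hypoosmotic replicates. In normoosmotic replicates it read 6.91, 7.44, 7.43 and 7.20. The groups overlapped widely, and this was the 1 enzyme whose highest array was hypoosmotic replicate 3. The change was 0.085 (95% interval −0.26 to 0.43; limma, adjusted p = 0.867), and 0.14 (adjusted p = 0.735) without hypoosmotic replicate 4.

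**Figure D2:**
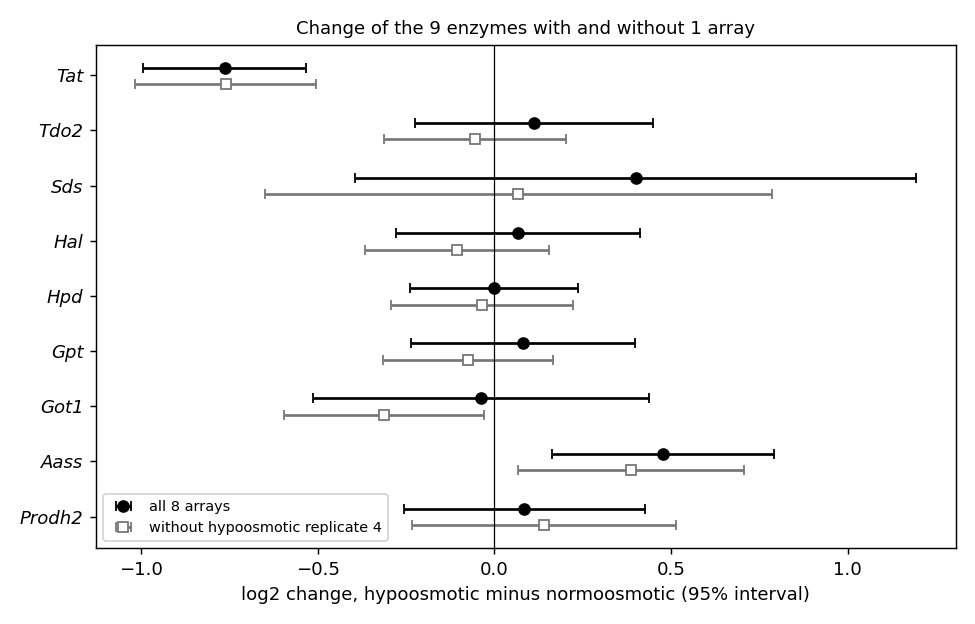
Log2 change (x axis, hypoosmotic minus normoosmotic) of each enzyme with its 95% interval from limma, with all 8 arrays (black circles) and without hypoosmotic replicate 4 (grey squares). Tat is at −0.76 in both fits, Aass at 0.48 and 0.39, and Got1 moves between −0.038 and −0.31.

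The 6 enzymes that were highest in hypoosmotic replicate 4 were Tdo2, Sds, Hal, Gpt, Got1 and Aass. Set against the mean of the other 3 hypoosmotic arrays, replicate 4 was higher by 1.33 log2 units for Sds, 1.10 for Got1, 0.69 for Hal, 0.67 for Tdo2, 0.63 for Gpt and 0.36 for Aass. The difference was 0.13 for Hpd, −0.01 for Tat and −0.23 for Prodh2. The median over the 9 genes was 0.63, against 0.0033 over all genes and 0.13 over the genes with a mean at or above the median of all genes. The array median of replicate 4 was 4.07, within the range of the others. Its mean log2 level of 8 Kupffer cell markers, 6.71, was the lowest of the hypoosmotic arrays, which reached 7.33, and lay within the normoosmotic range of 6.55 to 7.11. The stellate marker mean was likewise the lowest of the hypoosmotic arrays, at 6.11, within a normoosmotic range of 6.06 to 6.83. Its hepatocyte marker mean, 12.16, was the highest of the 8 arrays, and its blood marker mean, 3.78, the lowest, against 3.98 to 4.32 in normoosmotic arrays. Not every other cell type was low in replicate 4. Its mean of 3 cholangiocyte markers, 4.89, was the highest of the hypoosmotic arrays, within a normoosmotic range that reached 5.21. Its mean of 3 sinusoidal endothelial markers lay just above the lowest of the hypoosmotic arrays, which read 7.58 to 7.84. The part of these cell types in the enzyme values was not tested.

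**Figure D3:**
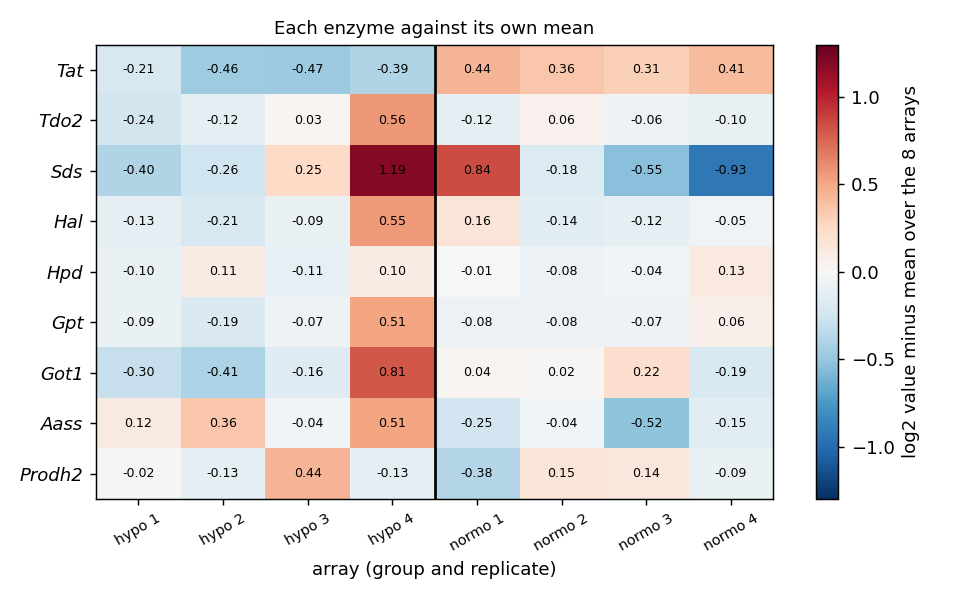
Log2 value of each enzyme (rows) minus its own mean over the 8 arrays, by array (columns, hypoosmotic left and normoosmotic right); red is above the mean and blue below. The Tat row splits by group, from −0.47 to −0.21 in hypoosmotic and from 0.31 to 0.44 in normoosmotic arrays, and the column of hypoosmotic replicate 4 is red for 7 of the 9 genes.

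Among 7252 genes with a mean at or above the median, accession-like symbols left out, the 3 whose values over the 8 arrays were most like those of Tat were Mkln1 (Pearson r = 0.995), Nfat5 (r = 0.993) and Eea1 (r = 0.991). Mkln1 encodes muskelin, Nfat5 the osmosensing transcription factor and Eea1 an early endosome protein. As with Tat, their groups did not overlap. Mkln1 lay between 7.21 and 7.49 in hypoosmotic arrays and between 8.13 and 8.21 in normoosmotic arrays. These r values largely measure the difference between the groups that the genes have in common. With group means subtracted, r with Tat was 0.88 for Mkln1, 0.82 for Nfat5 and 0.79 for Eea1. The 3 genes had been picked by their r over the same 8 arrays.

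Beyond the 9 enzymes, 85 other genes of amino acid breakdown were listed by route, and 70 of them had a probe set with a single symbol. Of these, 0 were called higher and 0 lower by limma, against 1.98% of all genes, and the lowest adjusted p was 0.126. An unadjusted p under 0.05 was found in 10 of the 70, with 10 higher and 0 lower, against 14.6% of all genes in either direction and 6.6% higher. The log2 change was above 0 in 61 of the 70, with a median of 0.16. Over all genes 58.1% of changes were above 0, with a median of 0.038, and over genes with a mean at or above the median 49.2%. Hypoosmotic replicate 4 was the highest of the 8 arrays for 39 of the 70, or 55.7%. Without it, 55 of the 70 changes were above 0 and their median was 0.087. In the same fit 8529 of the 14506 genes were above 0, with a median of 0.044. Over genes with a mean at or above the median it was −0.029.

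The 10 genes with an unadjusted p under 0.05 are named here after their values were seen. On the serine, threonine and glycine route they were Dmgdh, a dimethylglycine dehydrogenase, and Tdh, a threonine dehydrogenase. All 14 measured genes of this route had changes above 0, and 13 did without hypoosmotic replicate 4. With all arrays, changes were also all above 0 on the histidine (2 genes), other aminotransferase (5), lysine (4) and proline (4) routes. Dmgdh read 8.74, 8.87, 8.88 and 8.69 in hypoosmotic replicates and 8.25, 8.52, 8.51 and 8.47 in normoosmotic replicates, which do not overlap. Its change was 0.36 ± 0.11 (SE; limma, adjusted p = 0.126). Tdh was dim, with 2.77 to 3.46 in hypoosmotic and 2.59 to 2.76 in normoosmotic arrays. These 2 were the ones among the 70 whose groups lay apart, which 3.21% of all genes did with hypoosmotic arrays higher.

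On the methionine and cysteine route Cbs and Cth, the consecutive enzymes of transsulfuration, had log2 changes of 0.44 (limma, adjusted p = 0.139) and 0.33 (adjusted p = 0.253). Gpt2, the mitochondrial counterpart of Gpt, had a change of 0.33 (adjusted p = 0.24) and averaged 7.06 ± 0.11 in hypoosmotic and 6.73 ± 0.23 in normoosmotic arrays (SD, n = 4 each). Qdpr, which recycles the cofactor of phenylalanine hydroxylation, had a change of 0.47, and Kyat3, an aminotransferase that acts on kynurenine, one of 0.44. Of the branched-chain route Bckdhb, a subunit of the ketoacid dehydrogenase, and Ivd, isovaleryl-CoA dehydrogenase, had changes of 0.41 and 0.29. Pycr1, an enzyme of proline synthesis listed with the proline route, had one of 0.27. The adjusted p-values of these last 5 genes lay between 0.219 and 0.308. Downstream of Tat and Hpd the tyrosine genes Hgd and Fah, named as the only other measured enzymes of that chain, had changes of 0.048 and −0.058.

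**Figure D4:**
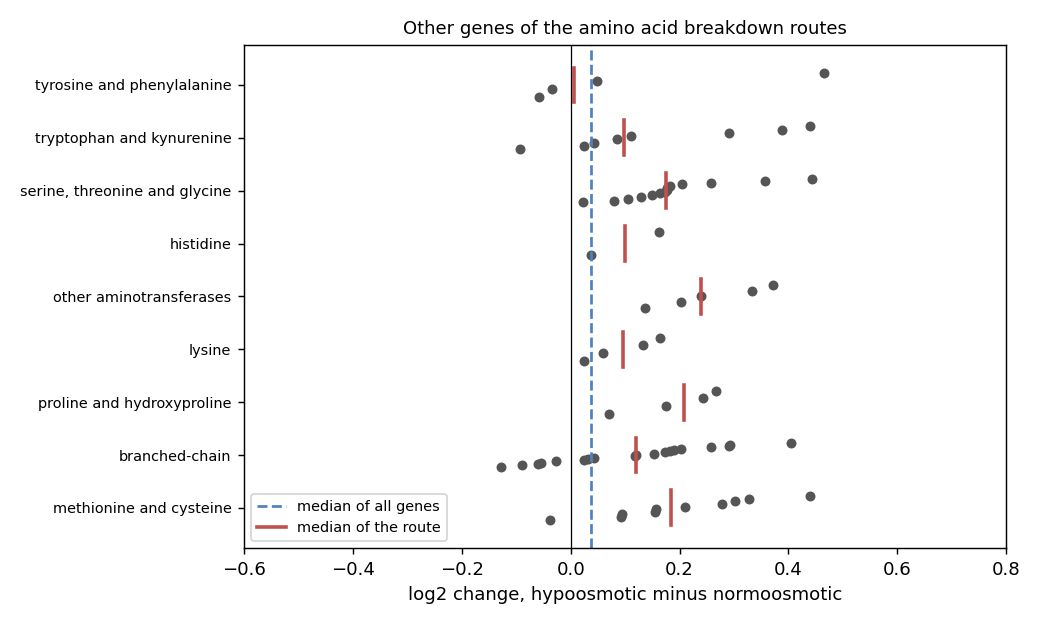
Log2 change (x axis, hypoosmotic minus normoosmotic) of the 70 other genes by route (rows); each point is 1 gene, red lines are route medians and the dashed blue line is the median of all genes, 0.038. Changes run from −0.13 to 0.47, the highest being Qdpr, and 61 of the 70 points lie above 0.

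Regulators of these enzymes gave no call. Of 10 listed, 0 were called higher and 0 lower by limma, against 1.98% of all genes called. An unadjusted p under 0.05 was found in 4 of the 10, with 2 higher and 2 lower, against 14.6% of all genes. Nr3c1, the glucocorticoid receptor gene, read 8.38 to 8.48 in hypoosmotic arrays and 8.45 to 8.85 in normoosmotic arrays, a change of −0.25 (adjusted p = 0.34). Creb1, which encodes a mediator of cAMP signals, had a change of −0.56 (limma, adjusted p = 0.103). Its means, 4.08 in hypoosmotic and 4.64 in normoosmotic arrays, lay below the median of all gene means, 4.65. Cebpa, a liver transcription factor gene, had a change of 0.50 (limma, adjusted p = 0.285). For Klf15, whose product drives amino acid breakdown genes in mouse liver, it was 0.33 (adjusted p = 0.251).

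Clock genes differed between replicates in both groups. Bmal1, an activator of the circadian clock, read 7.15, 6.90, 6.42 and 6.92 in hypoosmotic replicates and 4.85, 7.18, 4.75 and 7.32 in normoosmotic replicates. Dbp, a clock output gene, read 5.96, 6.43, 7.98 and 8.08 in hypoosmotic replicates and 8.89, 6.22, 9.04 and 6.31 in normoosmotic replicates, so that arrays of each group lay apart. Between the groups, Bmal1 ranged from 6.42 to 7.15 in hypoosmotic and from 4.75 to 7.32 in normoosmotic arrays. Its change was 0.82 (limma, adjusted p = 0.507), so that a difference between the groups was not shown. Normoosmotic replicates 1 and 3 lay below every hypoosmotic array for Bmal1, and normoosmotic replicates 2 and 4 lay above every one. For Tat, normoosmotic replicates 1 and 3 read 11.82 and 11.69, and replicates 2 and 4 read 11.74 and 11.79. With a clock score as a covariate the change of Tat was −0.78 (limma, adjusted p = 0.0136). The part of the clock in the change of Tat was not tested.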

How the data were processed

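Gene expression was measured with 1-colour arrays in 4 hypoosmotic and 4 normoosmotic samples, grouped by their titles. The deposited table holds the authors' log2 expression values for 27596 probe sets, used as deposited, and their range, 0.88 to 13.26, is that of log2 data. Per the submitters' processing notes, Transcriptome Analysis Console 4.0 was used. How probes were summarised, background-corrected and normalized is not given in the sources used here. Dim probe sets may read background, which shrinks their differences.

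Of the probe sets, 15310 had 1 gene symbol in the platform annotation, 323 had more than 1, and 11963 are not named here. Symbols were updated by gene ID through RefSeq (GRCr8), where 15279 matched, and the probe set with the highest mean was taken for each of 14506 genes. The test was limma 3.58.1 under R 4.3.3 (lmFit, eBayes, two-sided, Benjamini-Hochberg over all genes, called under 0.05). Changes are hypoosmotic minus normoosmotic. In 10 simulated data sets of 14506 genes for this comparison, 28.3% of genes changed by 0.5 and 86.5% of those changed by 1 were recovered. In each, 200 genes were changed, and normal noise was drawn independently for each gene and array. Deviations that many genes of an array share were thus not modelled, and recovery in the real data may differ.

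The members and lists were chosen with earlier results of these data known. Named genes are the 9 enzymes, called genes of the lists, regulators, clock genes and the 3 genes most like Tat; other genes are marker examples, the tyrosine genes Hgd and Fah, or genes picked with their values in view. The clock score subtracts the mean of Dbp and Per3 from that of Bmal1 and Npas2. Alternatives were quantile normalization, subtraction of array medians, a filter on the dimmest 25% of genes, array weights, a trended and robust prior, a replicate block, the mean over probe sets, adjustment over every probe set, the clock score, and leaving out each array. No gene coordinates are given for probe sets, since no genome build is named for them.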

Additional observations from a re-analysis of the deposited data

Results flagged for a closer look

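Among the 18 groups of 4 values (9 enzymes in each condition) 2 held an array far from the other 3, and chance alone marks about 1 group in 20. Hal read 8.33 in hypoosmotic replicate 4, against 7.57 to 7.69 in the other hypoosmotic replicates. Gpt read 6.37 in normoosmotic replicate 4, against 6.23 to 6.24 in the other normoosmotic replicates.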

How the results depend on the processing

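Tat was called lower under all 17 alternatives, with changes between −0.82 and −0.71 and adjusted p-values between 0.000676 and 0.0214, and it was the 1 enzyme called in each. The 70 other breakdown genes gave 0 calls in each of the 17. The count of called genes, 287, was 92 with the clock score as a covariate and 81 to 365 when 1 array was left out. It was 155 without hypoosmotic replicate 1, 81 without hypoosmotic replicate 2, 156 without hypoosmotic replicate 3, 117 without normoosmotic replicate 1 and 108 without normoosmotic replicate 3. Leaving out 1 array gave changes of −0.055 to 0.21 for Tdo2, −0.11 to 0.15 for Hal, −0.074 to 0.16 for Gpt, −0.31 to 0.094 for Got1 and −0.048 to 0.15 for Prodh2, and the sign turned without hypoosmotic replicate 4 for Tdo2 (−0.055), Hal (−0.11) and Gpt (−0.074). Prodh2 turned without hypoosmotic replicate 3 (−0.048) and normoosmotic replicate 1 (−0.027). Got1 turned to 0.058, 0.094 and 0.011 without hypoosmotic replicates 1, 2 and 3, to 0.028 without normoosmotic replicate 3 and to 0.070 with the clock score. None of these 5 genes passed the test in any alternative, and the cause of the changes of sign was not tested. Sds ranged from 0.068 to 0.75 and Aass from 0.38 to 0.57 when 1 array was left out, Aass with adjusted p-values from 0.0629 to 0.313 over all 17 alternatives. Creb1 passed with the replicate block (adjusted p = 0.0439) and without hypoosmotic replicate 1 (0.0442), and Cebpa without normoosmotic replicate 4 (0.0324). The replicate numbers were not shown to pair the samples, since deviations of same-numbered arrays correlated by only 0.046, 0.028, 0.084 and 0.17. Of the hypoosmotic arrays, only replicate 4 correlated best with its own number. Hypoosmotic replicates 1 and 3 correlated best with normoosmotic replicate 2 (0.083 and 0.21), and replicate 2 with normoosmotic replicate 4 (0.034). With the replicate block 256 genes were called, and Tat had an adjusted p of 0.0116.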
